A study of Drosophila melanogaster with 3 samples.

Results

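The genes described here encode the proteins of the fly's mitochondrial ribosome. They were chosen by symbol, as the protein-coding genes on the main chromosome arms whose symbols begin with mRpL (large subunit) or mRpS (small subunit). The rule found 73 of 13945 protein-coding genes, 47 for the large and 26 for the small subunit. Each was scored by the strongest chromatin immunoprecipitation peak that had its summit, the position of highest signal, at most 1000 bp from a start site of the gene.

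The peaks came from Drosophila embryos of the dpn-MiMIC-GFP line, in which an exon coding for eGFP sits in an intron of dpn, so that the fly makes the Deadpan protein fused to GFP. All 3 samples were biological replicates of 1 group, whole embryos of both sexes pooled at 0 to 24 hours of age, and all carried the fusion gene. Chromatin was sonicated to fragments of 200 to 800 bp and precipitated with an antibody to GFP, although the labels list dpn as the antibody. No untagged or input library was analysed here, so no level of background precipitation stands beside the values.

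The mitochondrial ribosome translates the few respiratory-chain subunits that mitochondrial DNA encodes, while its own proteins are encoded in the nucleus and imported. Proteins with low numbers have counterparts in bacterial ribosomes, and those with high numbers are found in mitochondria only. Deadpan belongs to the Hes family of transcriptional repressors with a basic helix-loop-helix domain, and is known in the embryo for segmentation, sex determination and the maintenance of neural stem cells. Hes proteins bind E-box and N-box hexamers in DNA.

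Most of the strongest peaks at these genes lay in the short stretch between a ribosomal protein gene and the next gene on the other strand. The sequences under 5 of those summits are shown because they carry some of the strongest signals that the members have, read from the NCBI release 6 genome in the direction of the member. They are the windows of 101 bases, with the summit in the middle, of the highest-ranked members that had at most 30 bases of untranslated exon in the window and could be shown here. The mRpS23 window is chr2L:13835407-13835507 on the minus strand, mRpS10 is chr3R:15229451-15229551 on the plus strand, mRpL4 is chr2L:16329167-16329267 on the minus strand, mRpL35 is chr3R:22023333-22023433 on the plus strand and mRpL32 is chr3R:31252665-31252765 on the plus strand. Capitals mark a match, on either strand, to the N-box CACNAG (in mRpS23 and mRpL32) or to ACACTG, a part of the core promoter element Motif 1 (in mRpL35), and the other windows held none of the motifs searched.
mRpS23: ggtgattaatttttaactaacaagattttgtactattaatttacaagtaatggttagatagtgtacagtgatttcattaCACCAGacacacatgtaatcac
mRpS10: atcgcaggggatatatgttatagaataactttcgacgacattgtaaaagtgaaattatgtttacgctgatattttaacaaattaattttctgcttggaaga
mRpL4: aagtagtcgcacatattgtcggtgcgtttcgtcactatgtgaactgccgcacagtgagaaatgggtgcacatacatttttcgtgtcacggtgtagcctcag
mRpL35: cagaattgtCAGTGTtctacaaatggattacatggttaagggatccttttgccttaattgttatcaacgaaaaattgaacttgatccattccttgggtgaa
mRpL32: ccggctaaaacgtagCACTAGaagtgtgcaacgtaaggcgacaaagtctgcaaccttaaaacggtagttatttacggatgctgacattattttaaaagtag

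A second set of sequences is shown because one hexamer, the palindromic E-box CAGCTG, recurred at the start sites of the members whether or not a strong peak lay there. In promoters taken as 250 bases before to 50 after the start site, it was present at 40 of 73 members (54.8%) and at 17.7% of all protein-coding genes. The stretches of 30 bases below run in the direction of the member, with 12 bases on either side of the E-box, which is in capitals. The first 4 belong to some of the most strongly bound members that hold it, namely mRpL23 (chr3L:2373715-2373744, minus strand), mRpS2 (chr2L:4850413-4850442, minus), mRpL47 (chr3R:9515873-9515902, minus) and mRpL35 (chr3R:22023510-22023539, plus). The others belong to members with a weak entry, mRpS34 (chr3L:16348064-16348093, plus) and mRpL45 (chr3R:22618471-22618500, plus), or with no entry in the pooled list, mRpL40 (chr3R:11407929-11407958, plus) and mRpL46 (chr3L:1777425-1777454, plus).
mRpL23: gtggttgacaatCAGCTGtttaaaacaagt
mRpS2: aacactacccacCAGCTGtttaccaaaatc
mRpL47: ttgttattgcttCAGCTGttttgttcggtc
mRpL35: gtgaatggcacaCAGCTGactgttacgcga
mRpS34: agccagccggcaCAGCTGttcgaccttccc
mRpL45: aatcacgtttgcCAGCTGgtcgcgttagtg
mRpL40: cagcaacaaaaaCAGCTGttcgtacattac
mRpL46: tgtgccgcaaatCAGCTGttccggctctgg

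A gene is called bound here when the IDR-thresholded list had a summit at most 1000 bp from one of its start sites. That list holds the 5164 entries that passed the threshold of the irreproducible discovery rate (IDR) procedure, which compares ranks between lists. Passing it did not mean a like rank in every replicate, as at mRpS30 (3015, 18186 and 5802 in replicates 1 to 3). Of the mitochondrial ribosomal protein genes, 41 of 73 (56.2%) were bound, against 27.9% of all protein-coding genes. When as many top entries were taken from each replicate's own list, 39, 42 and 41 members had a summit in replicates 1, 2 and 3, where 28.2%, 27.0% and 27.4% of all genes did. The share over replicates was 55.7% ± 2.09 for the members and 27.5% ± 0.612 for all genes (SD, n = 3), so the gap was many times the spread between replicates. The libraries hold all cells of the embryo, so strong binding in few cells and weak binding in many cannot be told apart.

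The calls were largely shared by the replicates. Of the 73 members, 34 had a summit among the top entries of all 3 replicates (46.6%, against 21.5% of all genes), 6 in 2 replicates, 8 in 1 and 25 in none. Among the 41 bound members these counts were 34, 4, 3 and 0. Bound members had already passed the comparison of ranks between lists, so these counts are not independent of the call. Any summit within 1000 bp was counted. At mRpL33 replicate 1 ranked the matching summit 19783 and another one 3631. Below the threshold, 68 of 73 members (93.2%) had some entry among the 30000 of the pooled list, in which 63.1% of all genes had one. The median rank of the bound members' strongest entries was 2566, and that of all bound genes was 2161, so the peaks at these genes were not generally among the strongest of the embryo.

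There were 4 exceptions, which stood far above the rest. The strongest entry of mRpL41, for a mitochondria-specific protein of the large subunit, ranked 9 in the pooled list and 9, 8 and 8 in replicates 1 to 3. That of mRpS23, for a mitochondria-specific protein of the small subunit, ranked 24 in the pooled list and 24, 22 and 24 in the replicates. For mRpS10, whose bacterial counterpart lies in the head of the small subunit, the pooled rank was 26 and the replicate ranks were 27, 33 and 27. These 3 genes thus had nearly the same rank in every library. The fourth, mRpL23, ranked 44 in the pooled list and 47, 50 and 38 in the replicates, and its bacterial counterpart lies at the exit of the tunnel through which the new protein leaves. All replicate ranks of the 4 genes lay from 8 to 50. The authors' signal value of their pooled entries ran from 2820 for mRpL41 to 1593 for mRpL23. The next member, mRpS2, had a signal value of 439.2 and a rank of 756, and the last entry of the IDR-thresholded list had 128.0. Ranks up to 100 were held by 4 of 41 bound members (9.76%) and by 2.90% of all bound genes, whereas ranks up to 1000 were held by 7 members (17.1%) and by 25.2% of all bound genes.

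**Figure D1:**
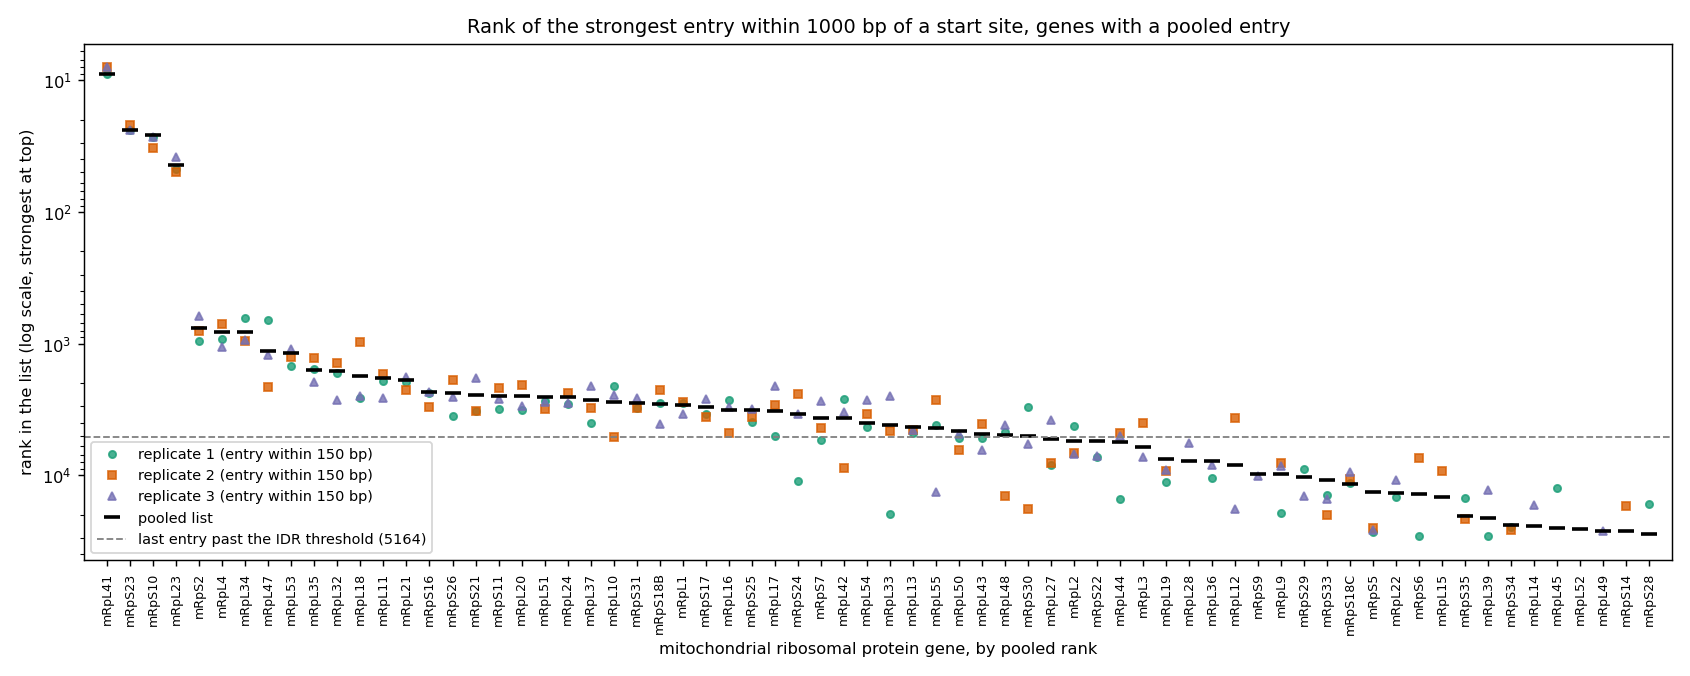
Rank of the strongest entry within 1000 bp of a start site for the 68 members with an entry in the pooled list (x axis, ordered by pooled rank; y axis, rank on a log scale with the strongest at the top). Black bars are ranks in the pooled list, coloured symbols the ranks in each replicate of an entry within 150 bp of the pooled summit (absent where there was none), and the dashed line is rank 5164, the last past the threshold. The 4 genes at the left, mRpL41, mRpS23, mRpS10 and mRpL23, stand apart at ranks up to 50, and the replicates scatter more below the line.

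Among the large-subunit genes after those, mRpL4, whose bacterial counterpart lines the exit tunnel, ranked 819 in the pooled list and 920, 710 and 1058 in the replicates. For mRpL34 the pooled rank was 820 and the replicate ranks were 644, 957 and 944. The mitochondria-specific genes mRpL47 and mRpL53 had pooled ranks of 1136 and 1185. The replicates spread more for mRpL47 (658, 2129 and 1223) than for mRpL53 (1475, 1275 and 1108). Replicate ranks were 1565, 1289 and 1952 for mRpL35 (pooled rank 1591), and 1676, 1414 and 2678 for mRpL32 (pooled rank 1627). For mRpL18 they were 2587, 973 and 2494 (pooled rank 1779), so replicate 2 placed it higher than the others did. For mRpL11, whose bacterial counterpart forms the base of a stalk where elongation factors bind, they were 1914, 1700 and 2588 (pooled rank 1822). For mRpL21 they were 1946, 2242 and 1812 (pooled rank 1895). All of these ranks lay inside the top 5164 of every replicate. Further down, the stalk proteins' genes mRpL1 and mRpL10 were bound at pooled ranks 2942 and 2791, whereas mRpL12, for the protein at the tip of the factor-binding stalk, was not, at 8318. The genes for proteins close to the peptidyl transferase centre in bacteria, mRpL2 and mRpL3, stayed below the threshold at 5459 and 6104.

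Of the small-subunit genes after mRpS23 and mRpS10, mRpS2 had a pooled rank of 756 and replicate ranks of 954, 802 and 621. The gene mRpS16 followed at 2322, with 2382, 3041 and 2331 in the replicates. Both were inside the top 5164 of every replicate. Another gene for a protein of the head in bacteria, mRpS7, was bound at rank 3693, with 5361, 4401 and 2728 in the replicates, so replicate 1 placed it just past the limit. Its neighbours in that part of the bacterial subunit, mRpS9 and mRpS14, were not bound, at ranks 9770 and 26660. The gene mRpS29, for a GTP-binding protein known in mammals for a role in cell death, was not bound either, at rank 10345.

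By subunit, the shares were close. Of the large-subunit genes 27 of 47 (57.4%) were bound, and of the small-subunit genes 14 of 26 (53.8%), against 27.9% of all genes. In the replicates' own lists the large subunit had 27, 27 and 28 members (58.2% ± 1.23) and the small subunit 12, 15 and 13 (51.3% ± 5.88, SD, n = 3). The difference between the subunits was close to the spread of the small subunit over replicates. Genes with bacterial-type numbers (mRpL up to 36, mRpS up to 21) were bound in 24 of 42 cases (57.1%), and those with higher, mitochondria-specific numbers in 17 of 31 (54.8%). The kinds of protein were farther apart in some other counts, but not always in the same direction. In the replicates' own lists 25, 27 and 25 bacterial-type genes (61.1% ± 2.75) and 14, 15 and 16 mitochondria-specific genes (48.4% ± 3.23, SD, n = 3) had a summit, and the ranges over replicates did not overlap. Of all genes 27.5% ± 0.612 had one. When a bound summit also had to be among the top entries of both replicates left after leaving 1 out, 22 to 24 bacterial-type genes (52.4% to 57.1%) and 11 to 12 mitochondria-specific genes (35.5% to 38.7%) were bound. Of all genes 22.3% to 22.9% were. The highest-ranked 2500 entries held 13 bacterial-type genes (31.0%) and 5 mitochondria-specific genes (16.1%, against 15.7% of all genes). The order was the other way when each summit was given only to the gene with the nearest start site. Then 9 of 42 bacterial-type genes (21.4%) and 10 of 31 mitochondria-specific genes (32.3%) were bound, against 20.1% of all genes. A window of 500 bp gave 54.8% for both kinds (all genes 24.5%). The symbols set this grouping, and in mammals some proteins of these names sit in the other subunit. By chromosome arm, bound members were 10 of 12 on 2L (83.3%, against 26.9% of all genes there), 9 of 12 on 2R (75.0% against 27.2%), 7 of 17 on 3L (41.2% against 27.7%), 11 of 21 on 3R (52.4% against 29.6%) and 4 of 11 on X (36.4% against 27.6%).

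The threshold fell within a continuous series of values. The last members inside it were mRpL43 at rank 4851 (replicates 5196, 4082 and 6452), mRpL48 at 4942 (4685, 14488 and 4125) and mRpS30 at 5001 (3015, 18186 and 5802). The first outside were mRpL27 at 5320 (8328, 8056 and 3798), whose bacterial counterpart reaches towards the transfer RNAs, then mRpL2 at 5459 (4196, 6737 and 6911) and mRpS22 at 5510 (7271, none and 7090). Each of these 6 genes was inside the top 5164 at that place in some replicate and outside it in another, except mRpS22, which was outside it in every one. They cannot be ordered beyond the spread between replicates. The 27 unbound members with a pooled entry had a median rank of 11663, and 11 of them ranked up to 10000. Beside mRpL2, mRpL3, mRpL12, mRpS9, mRpS14 and mRpS29, given above, the unbound members after mRpS22 were mRpL44 at 5568, mRpL19 at 7583, mRpL28 at 7749, mRpL36 at 7801 and mRpL9 at 9818, then mRpS33 at 10964, mRpS18C at 11663, mRpS5 at 13326, mRpL22 at 13571, mRpS6 at 13829 and mRpL15 at 14556. The weakest were mRpS35 at 20539, mRpL39 at 21286, mRpS34 at 23827, mRpL14 at 24363, mRpL45 at 25172, mRpL52 at 25558, mRpL49 at 26484 and mRpS28 at 27906. Several of these had no matching entry in one or more replicates.

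The pooled list had no entry at 5 members, namely mRpL30, mRpL38, mRpL40, mRpL46 and mRpS18A. No replicate had an entry within 1000 bp of mRpL30 or mRpL40. At mRpL38 only replicate 1 had one, at rank 19671, and at mRpL46 replicates 1 and 3 had one, at 15993 and 18228. At mRpS18A the replicates ranked their own strongest entries at 26443, 4973 and 5500, so this gene was in the top 5164 of 1 replicate despite its absence from the pooled list.

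Summits at bound members lay upstream of the gene and close to it. The distance from the nearest of the member's start sites was 144 bp at the median, the same as for all bound genes, and ran from 623 bp upstream (mRpL33) to 39 bp downstream (mRpL23). The summit lay upstream at 39 of 41 bound members (95.1%, against 83.1% of all bound genes) and within 500 bp at 40 of 41 (97.6% against 84.4%). Genes are not replicates of each other, and a gene and its neighbour can share 1 peak. The member's own start site was the nearest protein-coding start at 18 of 41 (43.9%), whereas this held for 68.7% of all bound genes. Ties counted as nearest, as at mRpL53 (66 bp, with CG33155) and mRpL13 (73 bp, with CG10602). At the other 23 members the summit lay nearer to another gene. The strongest of these cases were mRpS23, with the summit 107 bp from CenG1A, a GTPase-activating protein of the Arf family, against 385 bp from its own start, mRpS10, with 93 bp from Art3, an arginine methyltransferase, against 164 bp, and mRpS2, with 9 bp from Mon1, a vesicle-traffic protein, against 213 bp. Of the 4 strongest members, mRpL41 at 142 bp and mRpL23 at 39 bp had their own start site nearest. A CG9004 start site lay 24 bp from an mRpL23 start site on the other strand. Some calls of the nearest start rest on few bp, as at mRpS7 (199 bp from Cdk1 against 201 bp from its own start) and mRpS11 (24 bp from Ns1 against 33 bp). When replicate entries had to lie within 50 bp of the pooled summit, in place of 150 bp, 28 of 41 bound members kept their replicate ranks. Every count by nearest start site is limited by this, and its change over replicates was not tested.

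Among the bound members, the position of the summit was also counted by subunit. The member's own start was nearest at 16 of 27 bound large-subunit genes (59.3%, ties counted) and at 2 of 14 bound small-subunit genes (14.3%, namely mRpS18B and mRpS31). The median summit distance was 87 bp in the large and 218 bp in the small subunit, while the median ranks were alike, at 2566 and 2650. The split was seen in the data and not planned, and the counts are a description. Some of the calls behind it rest on few bp, as at mRpS7 and mRpS11 above. Divergent neighbours were about as frequent in both, at 37 of 47 and 21 of 26 members.

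**Figure D2:**
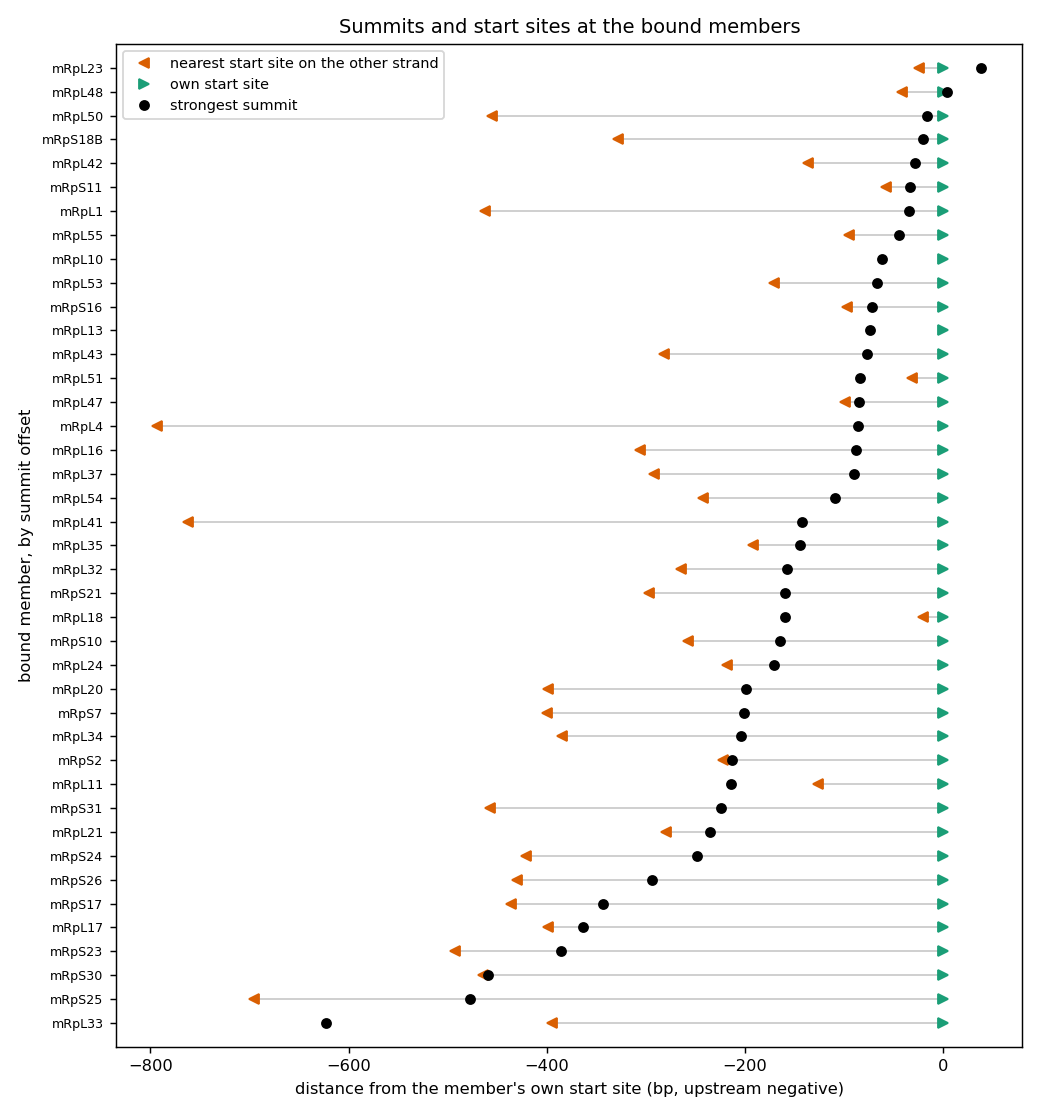
Position of the strongest summit (black circle) at the 41 bound members, in bp from the nearest of the member's own start sites (green, at 0), with the distance to the nearest start site on the other strand (orange; absent at mRpL10 and mRpL13). Summits run from -623 at mRpL33 to 39 at mRpL23, and 33 of 39 with such a neighbour lie between both start sites.

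A divergent neighbour, meaning a protein-coding start site on the other strand that points away from the member and lies within 1000 bp of it, was present at 58 of 73 members (79.5%) and at 36.2% of all genes. Of the members with one, 39 of 58 were bound (67.2%), against 48.0% of all genes with one. Of the 15 members without one, 2 were bound (13.3%), namely mRpL10 and mRpL13, against 16.5% of all such genes. In the replicates' own lists 37, 39 and 39 divergent members were bound (66.1% ± 1.99) against 47.1% ± 0.717 of all divergent genes, and 2, 3 and 2 of those without (15.6% ± 3.85) against 16.4% ± 0.608 (SD, n = 3). The gap to all genes was therefore larger than the spread between replicates for the members with a divergent neighbour and within it for those without. The median distance between the paired start sites, 283 bp, was near that of all divergent genes, 298 bp. At 33 of 39 bound divergent members (84.6%, against 72.5% of all bound divergent genes) the summit lay between both start sites, and at 19 of those 33 it was nearer to the partner's.

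When each summit was given only to the gene with the nearest start site, 19 of 73 members (26.0%) were bound, against 20.1% of all genes. Of the 13 members with no other protein-coding start within 1000 bp, 1 was bound (7.69%), against 16.2% of all such genes. The first share was 26.0% against 20.1%, a narrower gap than 56.2% against 27.9%, and the second was below that of all such genes but rests on 1 of 13 members. In bulk peak lists, binding that belongs to the ribosomal protein gene and binding that belongs to its neighbour cannot be told apart.

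Some of the divergent partners have known roles in mitochondria. Mitofilin, which shapes the cristae of the inner membrane, lay 192 bp from mRpL35, with the summit 48 bp from its start. The gene qless, for an enzyme of coenzyme Q synthesis, lay 264 bp from mRpL32, with the summit 107 bp from its start. HtrA2, a mitochondrial protease, lay 126 bp from mRpL11, with the summit 88 bp past the HtrA2 start. Taz, for the cardiolipin-remodelling enzyme tafazzin, lay 20 bp from mRpL18, with the summit 139 bp past the Taz start. Both of these summits were thus on the partner's side and not between the paired start sites. The summit at mRpL55, a weaker peak at rank 4417, lay in the 95 bp between it and ATPsynD, a subunit of ATP synthase. Other partners have other roles, among them Dg (dystroglycan, a receptor for extracellular matrix) at mRpL34, AGO1 (an Argonaute protein of the microRNA pathway) at mRpL53, rept (a chromatin-remodelling ATPase) at mRpL21, cg (a zinc-finger protein) at mRpS16, Cdk1 (the mitotic kinase) at mRpS7 and norpA (the phospholipase C of vision) at mRpL33. These partners were named after their values were seen, and their frequency was not compared with that at other genes.

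**Figure D3:**
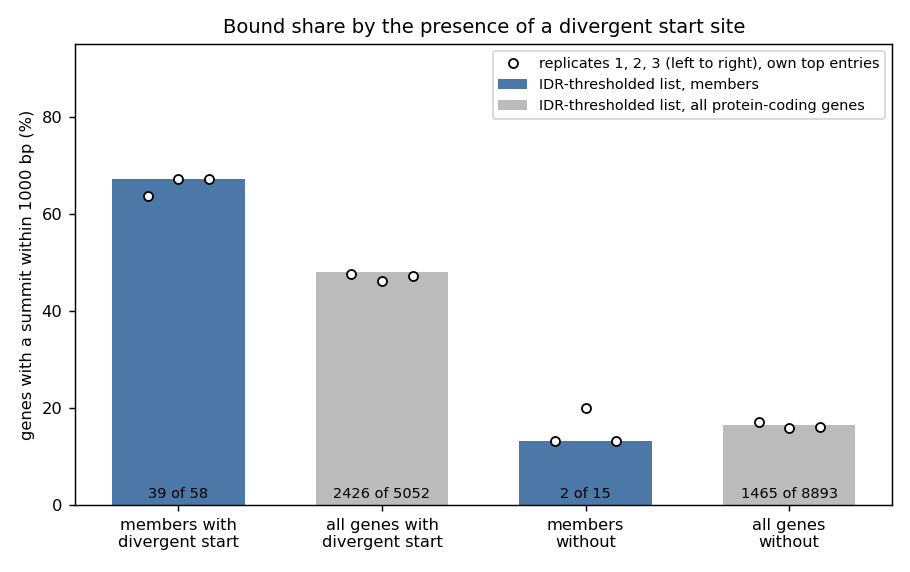
Share of genes bound by the rule of 1000 bp (y axis, percent), for members (blue) and all protein-coding genes (grey), with and without a divergent start site. Bars are the IDR-thresholded list (39 of 58, 2426 of 5052, 2 of 15 and 1465 of 8893 genes) and circles the top entries of replicates 1 to 3. Members exceed all genes with a divergent start (67.2% against 48.0%) and not without (13.3% against 16.5%).

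Of the motifs searched in promoters on both strands, the E-box CAGCTG shown above had the widest gap between the members and all genes. It was in 27 of 47 large-subunit (57.4%) and 13 of 26 small-subunit promoters. Its share was 61.0% in bound members (25 of 41) and 46.9% in unbound members (15 of 32), and 21.9% in all bound genes. It was in 31 of 58 promoters with a divergent start site (53.4%, against 22.0% of all such genes) and in 9 of 15 without (60.0%, against 15.2%). The share thus exceeded that of all genes in every one of these subsets. Of the promoters of cytosolic ribosomal protein genes, 9 of 92 held it (9.78%).

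The matches gathered at the start site. Over all promoters, too, the share per bin of 10 bp was highest beside the start, at 1.31%. The 45 matches had a median position 2 bp after the start site, against 51 bp before it in all promoters, and 39 of them (86.7%, against 66.0%) lay within 100 bp of the start. From 30 bases before to 30 after the start, a window chosen after the positions were seen, 29 of 73 members had it (39.7%) and 6.78% of all genes. That window held it in 19 of 41 bound (46.3%) and 10 of 32 unbound members (31.2%), and in 3 of 92 cytosolic ribosomal protein genes (3.26%). Of the 29 matches in the whole promoters of bound members, 3 lay within 50 bp of the summit. The median distance of these matches from the summit was 128 bp. Matches outside the promoters were not in this count. Within 100 bp of the summit the hexamer was present at 12 of 41 bound members (29.3%), against 10.3% of all IDR-thresholded peaks. The latter include peaks away from start sites, so the sets differ in position. At mRpL41, the member with the strongest peak, it began 9 bases before the start site and 135.5 bp from the summit, measured from the middle of the hexamer. A match is a run of letters and says nothing of what binds there.

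**Figure D4:**
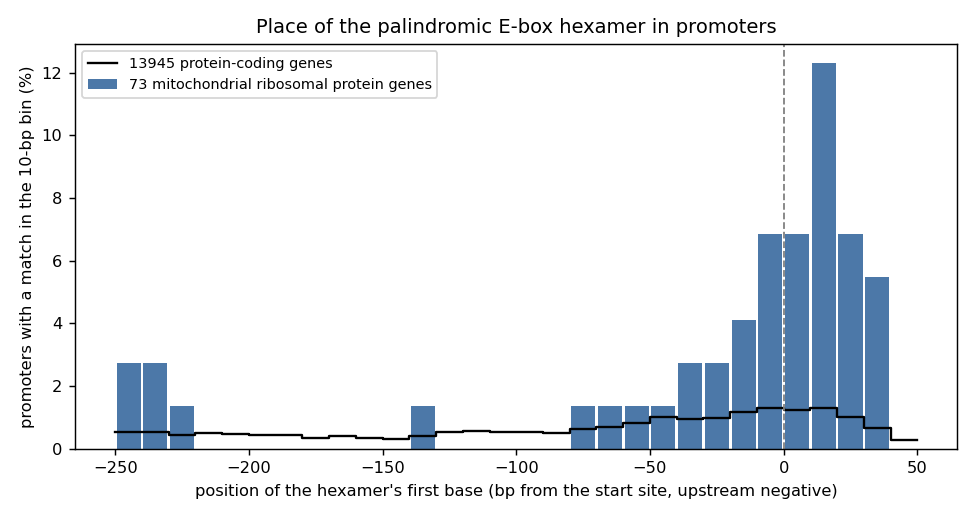
Share of promoters with the palindromic E-box hexamer in each bin of 10 bp (y axis, percent) by distance of its first base from the start site (x axis, bp, upstream negative), for the 73 members (bars) and all 13945 protein-coding genes (line). The members' matches gather at the start site, where 39.7% have one from 30 bases before to 30 after, against 6.78% of all genes.

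For the other motifs the gap was smaller. The DNA replication-related element TATCGATA was in 15 member promoters (20.5%, against 9.37% of all), the Motif 1 parts GGTCACAC and ACACTG in 8 (11.0% against 7.71%) and 20 (27.4% against 18.9%), and TATAAA in 34 (46.6% against 45.9%). The E-box forms known for Hes proteins were few, CACGTG in 5 promoters (6.85% against 4.24%) and CACGCG in 4 (5.48% against 6.17%). The N-box CACNAG was in 24 (32.9% against 29.8%). It was less frequent in bound members (10 of 41, 24.4%) than in unbound members (14 of 32, 43.8%). Of all bound genes 31.9% had it. In promoters from 100 bases before the start, CACNAG was in 13 (17.8% of members and 17.8% of all), TATAAA in 14 (19.2% against 24.1%), CACGTG in 3 (4.11% against 2.43%) and CACGCG in 2 (2.74% against 4.08%). Within 50 bp of the summits of the 41 bound members, CACNAG was found at 8 (19.5%, against 11.4% of all IDR-thresholded peaks), ACACTG at 7 (17.1% against 10.1%), TATAAA at 6 (14.6% against 16.3%), CAGCTG at 4 (9.76% against 4.90%), CACGCG at 2 (4.88% against 1.92%), and CACGTG, TATCGATA and GGTCACAC at 1 each (2.44%, against 0.910%, 3.08% and 1.82%). These counts are small, they depend on the window, and the peaks they stand beside include some away from start sites. Within 100 bp of the summit, CACNAG was at 9 summits (22.0% against 21.8%), ACACTG at 8 (19.5% against 20.3%), CACGTG at 4 (9.76% against 2.38%), TATCGATA at 4 (9.76% against 5.54%), GGTCACAC at 3 (7.32% against 3.64%), TATAAA at 13 (31.7% against 30.6%) and CACGCG at 2 (4.88% against 3.81%). The A and T content around the summits was 62.0% at bound members and 62.7% over all peaks.

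The rest of the mitochondrial gene expression machinery, in a list of 25 genes for other ribosomal proteins, translation factors, transcription, RNA handling and DNA replication, had 9 of 25 genes bound, with a median rank of 3450, beside the 27.9% of all genes. In the replicates' own lists 9, 6 and 7 of the genes were bound, where 28.2%, 27.0% and 27.4% of all genes were. The share of the list was above that of all genes in replicate 1, below it in replicate 2 (24.0%) and close to it in replicate 3. The list was chosen with earlier results of these data known, that of PNPase among them, so its strong peak is a description only. PNPase, for the mitochondrial polynucleotide phosphorylase, had pooled rank 10 and replicate ranks 10, 12 and 10, close to those of mRpL41. It was followed by mtSSB, for the single-strand binding protein of mitochondrial DNA, at 555 (473, 626 and 592), PolrMT, for the mitochondrial RNA polymerase, at 2772 (2993, 3619 and 2830), tko, a small-subunit protein with its own symbol, at 3135 (2802, 5330 and 2893) and mIF2, for an initiation factor, at 3450 (5453, 6386 and 2291). The other ribosomal protein in the list, bonsai, had no entry. The E-box CAGCTG was in 13 of these 25 promoters (52.0%), and in 10 (40.0%) it lay from 30 bases before to 30 after the start, shares near those of the members.

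The genes for cytosolic ribosomal proteins, which share the function and not the compartment, had a larger bound share and a stronger median rank in the same lists. Of these 74 of 92 were bound (80.4%, against 27.9% of all genes), at a median rank of 996 and a median summit distance of 39.5 bp. In the replicates' own lists 76, 73 and 71 had a summit, where 28.2%, 27.0% and 27.4% of all genes did. With each summit given only to the gene with the nearest start site, 66 of 92 were bound (71.7%). That rule gave 19 of 73 members (26.0%) and 20.1% of all genes. A divergent start site was present at 55 of 92 (59.8%, against 36.2% of all genes).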

How the data were processed

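Peak lists of 3 biological replicates in 1 group were used. Per the labels the assay was ChIP-seq; per the deposited lists of files, each replicate and the pool of all 3 gave a list of entries, called against a control alignment and passed to IDR. The aligner and peak caller are not given in the sources used here. In the deposited lists, column 7 is the authors' signal value, used only to rank entries, and column 10, of another unit, is the authors' summit offset in bp. The lists hold no read counts, so depth and counting error are unknown, and only replicate spread is given. Lists on dm6 were used; the same lists on dm3 were not used here.

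Start sites came from the Ensembl annotation (release 115) and sequences from the NCBI release 6 genome; 13920 of 13921 shared genes had the same position in both annotations. Positions count from 1. Replicate ranks are those of entries within 150 bp of the pooled summit; for a member with no pooled entry they are those of the strongest entry within 1000 bp. Top entries are the highest-ranked 5164. Of 28 list symbols, 1 matched no gene and alternative symbols of 1 gene counted once. Motifs were read on both strands. Named genes were the 15 strongest members, all unbound members, those beside the threshold, the 3 strongest with another gene nearest and the 5 strongest other genes; the remaining names illustrate roles or neighbours. Members and lists were chosen with earlier results of these data known, so no test was run. Scripts, tested on simulated peaks, used Python 3.11.15, numpy 2.4.6 and matplotlib 3.10.9.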

Additional observations from a re-analysis of the deposited data

How the results depend on the processing

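When a summit was also required among the top entries of both other replicates, 33 to 35 of the 73 members (45.2% to 47.9%) and 22.3% to 22.9% of all genes were bound. With the highest-ranked 2500 entries, 18 members were bound (24.7%, all genes 15.7%), 11 of the large and 7 of the small subunit, 13 bacterial-type and 5 mitochondria-specific; replicates averaged 17.3, and 2 other mitochondrial genes were bound. With any pooled entry 68 were bound (93.2%, all genes 63.1%). With the nearest start site only, 19 were bound (26.0%, all genes 20.1%), 17 of the large and 2 of the small subunit. These were 9 of 42 bacterial-type (21.4%) and 10 of 31 mitochondria-specific genes (32.3%). With crowded members left out 1 of 13 was bound (7.69%, all such genes 16.2%). Leaving out a replicate gave 22 to 24 bacterial-type (52.4% to 57.1%) and 11 to 12 mitochondria-specific genes (35.5% to 38.7%). It gave 4 to 6 of the 25 other mitochondrial genes (16.0% to 24.0%), near the 22.3% to 22.9% of all genes. The median summit distance was 143 bp with a window of 500 bp, 170 bp with 2000 bp and 142 to 144 bp without a replicate. For the call at nearest starts and crowded members the construction itself leaves out summits or genes; for the others the cause was not tested. A window of 500 bp gave 40 members (54.8%, all genes 24.5%), 2000 bp gave 47 (64.4%, all genes 33.0%), the 10000 highest pooled entries gave 52 (71.2%, all genes 41.4%), and gene-level starts or the NCBI annotation gave 41 (56.2%, all genes 26.0% and 27.9%). In promoters from 100 bases before the start, CAGCTG was in 38 in place of 40, CACNAG in 13 in place of 24, TATAAA in 14 in place of 34, CACGTG in 3 in place of 5 and CACGCG in 2 in place of 4. Lists without counts limit every value to ranks, and 3 libraries of 1 group, with no control library analysed here, allow no contrast between groups.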
